A study of Ovis aries with 6 samples.

Results

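The Toll-like receptors are the family of pattern recognition receptors encoded in the files by TLR1 to TLR10. All 10 were found by their gene names among the 28394 genes, and 9 of the 10 had enough counts for a test, the exception being TLR10. Their expression was compared in the skin of 3 Super Merino (SM) ewes, a fine wool breed derived from crosses of Merino with Chinese fine wool sheep, and 3 Small Tail Han (STH) ewes, an indigenous coarse wool breed. Wherever values of single ewes are listed, those of SM come in the order 128, 30034, 30126, and those of STH in the order XW3, XW5, XW8. The labels give an age of 9 months for every ewe, which differs from the age in the methods of the study, where both breeds were kept on 1 farm and the same feed. Skin was cut behind the shoulder blade without separation of cell types, and no ewe is described as treated or infected.

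Toll-like receptors are transmembrane proteins whose outer leucine-rich repeats bind conserved microbial molecules and whose inner TIR domain recruits adaptor proteins. TLR1, TLR2, TLR4, TLR5, TLR6 and TLR10 act mainly at the cell surface, where TLR2 pairs with TLR1 or TLR6 to bind bacterial lipoproteins, TLR4 senses lipopolysaccharide and TLR5 senses flagellin. TLR3, TLR7, TLR8 and TLR9 act in endosomes and sense nucleic acids, and signalling through MYD88 or TICAM1 leads to NF-κB and interferon regulatory factors. In skin they are known from keratinocytes as well as from macrophages, dendritic cells, mast cells and other immune cells.

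Each library is 1 ewe, with 28870583 to 44645091 total counts, and levels are given as CPM, counts scaled to a library size that is adjusted by the TMM method. On the total counts without that adjustment, the floor of 3 counts equals 0.0672 to 0.104 CPM, and it covers counting error only. SM ewe 30126 stood apart in 1 measure, with 22.7% of the reads behind its deposited RPKM lying outside the total counts, against 29.0% to 34.5% in the other 5 ewes. The keratinocyte gene KRT5 was between 4670.3 and 8418.9 CPM in all 6 ewes. In bulk skin, fewer cells of a type and less RNA per cell cannot be told apart.

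The receptors lie on 7 chromosomes of the Oar_v4.0 assembly, and 5 of them sit in 2 clusters. TLR10, TLR1 and TLR6 follow each other on the minus strand of chromosome 6, from 57899540 to 57928203, from 57937625 to 57947461 and from 57964780 to 57987579. TLR1 and TLR6 are 17318 bases apart with 0 annotated genes between them. They are close paralogs, and how the counting divided reads that match both is not given in the sources used here, so their split is uncertain. TLR7, with 3179 exonic bases in 1 exon from 10364478 to 10367656, and TLR8, from 10390947 to 10407590, lie 23290 bases apart on the plus strand of the X chromosome. TLR4 is on chromosome 2 from 5880391 to 5891142, TLR5 on chromosome 12 from 24624676 to 24649264, TLR2 on chromosome 17 from 3841029 to 3852531 and TLR9 on chromosome 19 from 48652597 to 48657136. TLR3, on chromosome 26 from 14709287 to 14900241, has an unusual model in this annotation. It spans 190955 bases, against 11041 bases for the same gene identifier in the later ARS-UI_Ramb_v3.0 assembly. It also overlaps LOC101114586, which the name table calls SORBS2, on the opposite strand over 7270 bases. The exons counted for TLR3 sum to 10217 bases, the longest of the 10, and how many of its counts come from outside the shorter gene was not tested.

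TLR4 and TLR2 were the most abundant receptors in every ewe. On a scale of CPM per kilobase of exon, which allows levels of different genes to be compared, TLR4 was 5.71 ± 0.719 (SD, n = 6) and TLR2 3.13 ± 0.611 (SD, n = 6). TLR4 was at 6.60, 5.69 and 5.03 in SM ewes against 4.85, 6.48 and 5.61 in STH ewes. TLR2 was at 3.94, 3.36 and 2.93 in the same SM ewes and at 2.24, 2.75 and 3.56 in STH ewes. The next receptors lay well below both. TLR7 had a mean of 1.14 ± 0.455 (SD, n = 6), TLR3 of 0.852 ± 0.264 (SD, n = 6), TLR6 of 0.808 ± 0.240 (SD, n = 6) and TLR8 of 0.600 ± 0.249 (SD, n = 6). TLR1 followed with 0.468 ± 0.219 (SD, n = 6), TLR9 with 0.382 ± 0.110 (SD, n = 6) and TLR5 with 0.249 ± 0.0870 (SD, n = 6). TLR10 was lowest at 0.0389 ± 0.0286 (SD, n = 6).

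**Figure D1:**
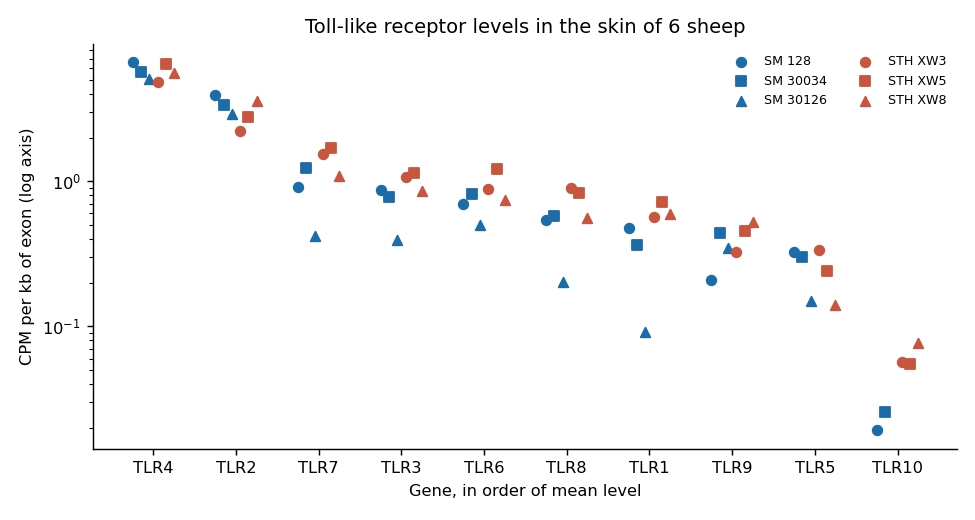
Level of each Toll-like receptor in CPM per kilobase of exon on a log axis, with 1 point for each of the 3 SM (blue) and 3 STH (red) ewes and the genes in order of their mean over 6 ewes. TLR4 and TLR2 lie above all other receptors, and TLR10 lies lowest, with the 0 of SM ewe 30126 not drawn.

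The order of neighbours was examined within each ewe as a difference of log2(level + 0.1), with an exact two-sided sign-flip permutation test over 6 ewes whose smallest p is 0.0312. In all 6 ewes TLR4 exceeded TLR2 (mean log2 difference 0.86 ± 0.23, SD), TLR2 exceeded TLR7 (1.46 ± 0.78, SD), TLR7 exceeded TLR3 (0.34 ± 0.24, SD) and TLR5 exceeded TLR10 (1.31 ± 0.49, SD). Each of these 4 pairs reached the smallest exact permutation p, 0.0312, which became 0.0703 after Benjamini-Hochberg adjustment over 9 pairs. The pairs and their direction were taken from the means of these same 6 ewes, so the p values are not independent of that choice. TLR6 was above TLR8, and TLR8 above TLR1, in 5 of 6 ewes (exact permutation p = 0.0625, adjusted p = 0.0938). The order of TLR3 and TLR6 was not distinguishable, with TLR3 higher in 3 of 6 ewes (exact permutation p = 0.594). For TLR1 and TLR9 (exact permutation p = 0.688) and for TLR9 and TLR5 (exact permutation p = 0.188) the stated order held in 4 of 6 ewes. The place of TLR3, next to TLR7 and TLR6, depends on the exon length of its unusual model. TLR10 was at most 0.0768 in any ewe, under the added 0.1, so its log2 difference from TLR5 is narrowed by that addition.

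The receptors also differed in how far they varied between ewes. TLR4 differed by 1.36 times between its lowest and highest ewes and TLR2 by 1.76 times. TLR3, TLR5, TLR6 and TLR9 differed by 2.39 to 2.90 times. TLR7 differed by 4.04 times, TLR8 by 4.49 times and TLR1 by 7.79 times. SM ewe 30126 had the lowest value for 5 of the 9 tested receptors, TLR1, TLR3, TLR6, TLR7 and TLR8, and the highest for 0. STH ewe XW5 had the highest value for 4 of the 9, TLR1, TLR3, TLR6 and TLR7. Ewe 30126 is also the ewe with the smallest share of reads outside the counts. With that share as a covariate, a fit chosen after the data were seen, the log2 ratio of SM over STH lay nearer 0 for TLR1 (-0.66), TLR3 (-0.38), TLR6 (-0.38), TLR7 (-0.54) and TLR8 (-0.60). In the same fit it lay farther from 0 for TLR2 (0.42), TLR4 (0.15), TLR5 (0.23) and TLR9 (-0.50), and the part of that share in the receptor levels was not tested.

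In the comparison of the breeds, 0 of the 9 tested receptors passed, a pass being more than 1.5-fold at a Benjamini-Hochberg adjusted p below 0.05 over 15320 genes in edgeR's quasi-likelihood test, and 0.0% of all genes did. At an unadjusted p under 0.05 there were also 0 of 9, against 18.0% of all tested genes. DESeq2 and edgeR's likelihood ratio test likewise passed 0 of the 9, against 2.89% and 2.3% of all genes. At an unadjusted p under 0.05 these also gave 0 of the 9, against 20.2% of all genes for DESeq2 (7.81% higher in SM, 12.4% in STH) and 19.1% for the likelihood ratio test (7.14% higher in SM). Log2 ratios are given as SM over STH. The 4 endosomal receptors, TLR1 and TLR6 had negative values, so that means were higher in STH ewes, and TLR2, TLR4 and TLR5 had positive values. Over all tested genes 51.4% had positive and 48.6% negative values. The median over the 9 was -0.51 and over all tested genes 0.02, and the smallest adjusted p of a receptor was 0.318.

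**Figure D2:**
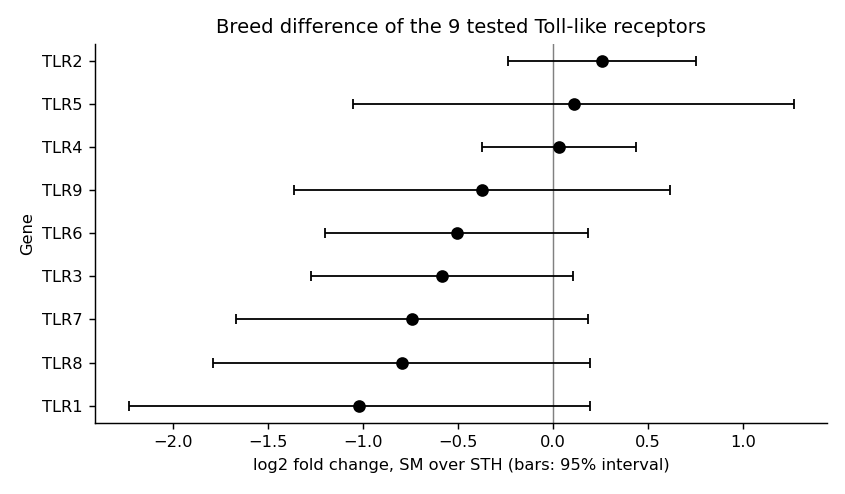
Log2 ratio of each of the 9 tested Toll-like receptors, SM over STH, with bars for the 95% interval of edgeR's quasi-likelihood fit. Points run from -1.02 for TLR1 to 0.26 for TLR2, and every interval includes 0.

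Among the surface receptors, TLR4 was alike in mean in the breeds, with the narrowest interval of the family. It had 22.8, 19.7 and 17.4 CPM in SM ewes against 16.8, 22.4 and 19.4 in STH ewes. The highest and lowest ewes were 1 of each breed, and the groups overlapped throughout. The log2 ratio was 0.03 (SE 0.18, 95% interval -0.37 to 0.44, adjusted p = 0.928, quasi-likelihood), so differences of more than about 0.44 in either direction lay outside the interval.

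TLR2, the shared partner of TLR1 and TLR6, had 16.8, 14.4 and 12.5 CPM in SM ewes against 9.56, 11.8 and 15.2 in STH ewes. STH ewe XW8 lay among the SM ewes, and XW3 and XW5 lay below them. Its log2 ratio was 0.26 (SE 0.22, 95% interval -0.24 to 0.75, adjusted p = 0.502, quasi-likelihood). It was 0.11 without STH ewe XW3, 0.14 without SM ewe 128 and 0.45 without STH ewe XW8.

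TLR1 had the largest breed difference of the tested receptors and was the only one of the 9 whose groups did not overlap. It had 2.12, 1.62 and 0.408 CPM in SM ewes, from 64, 73 and 16 counts, and 2.53, 3.17 and 2.65 CPM in STH ewes, from 78, 134 and 80 counts. All 3 STH values exceeded the 3 SM values, an order also found in 13.3% of all tested genes, and the gap between the breeds was smaller than the gap between SM ewes 30034 and 30126. The breeds had means of 1.38 ± 0.878 CPM (SD, n = 3) for SM and of 2.78 ± 0.344 (SD, n = 3) for STH ewes. The log2 ratio was -1.02 (SE 0.53, 95% interval -2.23 to 0.20, adjusted p = 0.321, quasi-likelihood). Without SM ewe 30126 it was -0.57, and without SM ewe 128 it was -1.45.

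TLR6, which binds diacylated lipoproteins together with TLR2, had 3.57, 4.21 and 2.57 CPM in SM ewes against 4.54, 6.30 and 3.84 in STH ewes. STH ewe XW8 fell between SM ewes 128 and 30034. Its log2 ratio was -0.51 (SE 0.30, adjusted p = 0.366, quasi-likelihood), and it moved to -0.32 without SM ewe 30126 and to -0.28 without STH ewe XW5. Within a ewe, the level of TLR6 per kilobase was 1.25 to 2.24 times that of TLR1 in 5 ewes and 5.44 times in SM ewe 30126, where TLR1 had only 16 counts.

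TLR5, the flagellin receptor, had 1.22, 1.13 and 0.561 CPM in SM ewes against 1.26, 0.900 and 0.530 in STH ewes, from 16 to 51 counts. Both breeds covered nearly the same range. The log2 ratio was 0.11 (SE 0.51, 95% interval -1.05 to 1.27, adjusted p = 0.911, quasi-likelihood), an interval that leaves differences of about 2-fold in either direction unresolved at this depth.

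TLR10, a relative of TLR1 and TLR6, was close to the limit of detection. It had 2, 4 and 0 counts in SM ewes against 6, 8 and 8 counts in STH ewes. All 3 STH values exceeded the 3 SM values, an order found in 13.3% of all tested genes, a set that leaves out genes of such low counts. The counts summed to 6 in SM and 22 in STH ewes. The TLR10 model overlaps that of LOC105615470 on the same strand, and whether any of these counts come from LOC105615470 was not tested. The gene did not reach the minimum count for the test, and without that minimum its log2 ratio was -1.98 (SE 1.13, adjusted p = 0.374, quasi-likelihood).

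**Figure D3:**
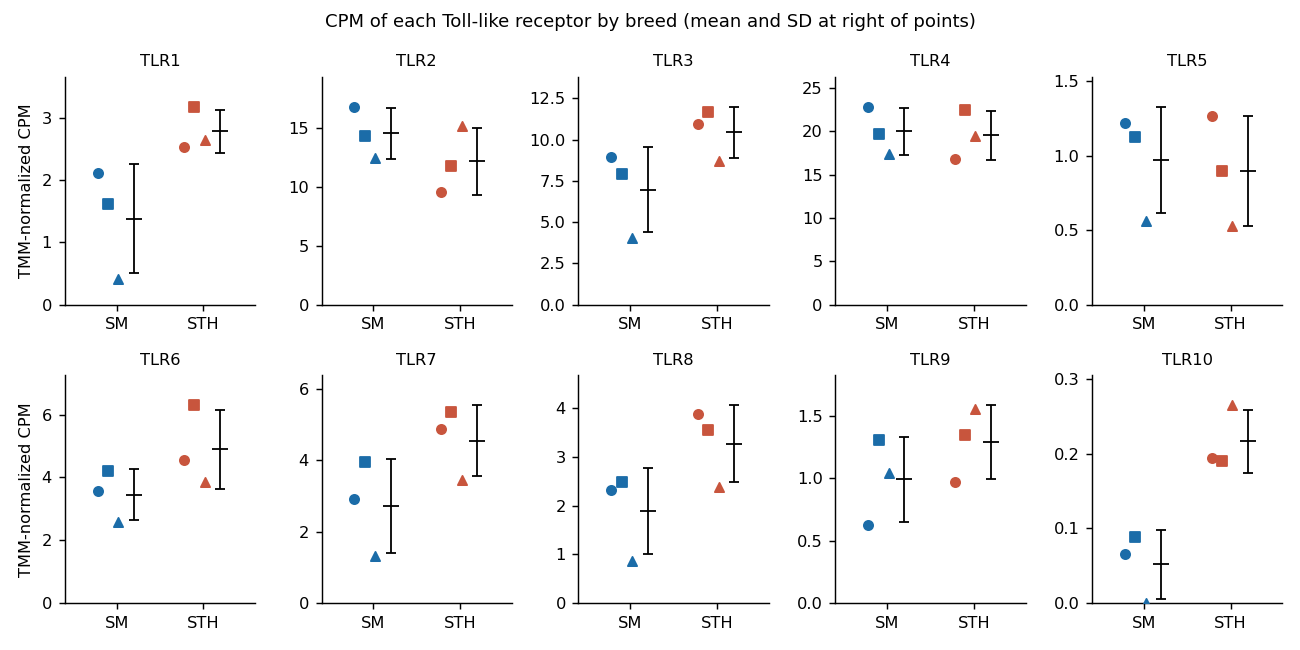
TMM-normalized CPM of each Toll-like receptor, 1 panel a gene with its own axis from 0, with points for the 3 SM and 3 STH ewes and the mean with its SD to their right. Only in TLR1 and TLR10 do all STH points lie above all SM points, and SM ewe 30126 (blue triangle) is the lowest point of TLR1, TLR3, TLR6, TLR7, TLR8 and TLR10.

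The 4 endosomal receptors had lower means in SM than in STH ewes, and in each of them the groups overlapped. TLR3, the receptor for double-stranded RNA, had 8.96, 7.93 and 4.03 CPM in SM ewes against 10.96, 11.7 and 8.70 in STH ewes. The overlap rested on SM ewe 128 and STH ewe XW8, whose values lay close together. The log2 ratio was -0.59 (SE 0.30, 95% interval -1.28 to 0.10, adjusted p = 0.318, quasi-likelihood), and without SM ewe 30126 it was -0.29. SORBS2, which overlaps it on the other strand, had 554 to 1360 counts, and whether the counting used strand is not given in the sources used here.

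TLR7 and TLR8, neighbouring receptors for single-stranded RNA, showed the same order of ewes at the low end. TLR7 had 2.91, 3.94 and 1.32 CPM in SM ewes against 4.86, 5.35 and 3.44 in STH ewes. TLR8 had 2.31, 2.48 and 0.866 in SM ewes against 3.89, 3.55 and 2.38 in STH ewes. In both genes SM ewe 30126 was lowest, SM ewe 128 next, and STH ewes XW3 and XW5 were the highest pair. Their log2 ratios were -0.74 (SE 0.41, adjusted p = 0.334) and -0.80 (SE 0.44, adjusted p = 0.333), both by quasi-likelihood. Without SM ewe 30126 they were -0.39 and -0.44, and that of TLR7 was -1.11 without SM ewe 30034. The level of TLR7 per kilobase was 1.69 to 2.15 times that of TLR8 in every ewe, a narrower range than that of either gene alone.

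TLR9, the receptor for unmethylated CpG DNA, did not follow them. It had 0.628, 1.31 and 1.04 CPM in SM ewes against 0.973, 1.35 and 1.56 in STH ewes, from 19 to 59 counts. SM ewe 128, rather than 30126, was lowest, followed by STH ewe XW3, and the groups overlapped. The log2 ratio was -0.37 (SE 0.43, adjusted p = 0.627, quasi-likelihood), and it was -0.14 without SM ewe 128, -0.22 without STH ewe XW8 and -0.64 without SM ewe 30034.

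As a share of the summed level of the 10 receptors, which removes library size, TLR4 made up 45.2%, 41.9% and 50.0% in SM ewes against 38.01%, 41.6% and 40.8% in STH ewes. TLR2 and TLR4 together made up 66.6% to 79.1% in SM and 55.5% to 66.8% in STH ewes, ranges that meet at SM ewe 30034 and STH ewe XW8. The endosomal receptors made up 13.5% to 22.3% in SM and 21.9% to 30.0% in STH ewes. TLR1 and TLR6 together made up 5.87% to 8.67% in SM and 9.75% to 12.4% in STH ewes, without overlap, although TLR6 alone overlapped. The shares of TLR1, TLR3 and TLR10 were also higher in all STH ewes, and that of TLR4 in all SM ewes. In CPM, 25.6% of all tested genes did not overlap in either direction. The shares of a ewe are parts of 1 sum and so depend on each other. The summed level itself was 14.6, 13.6 and 10.1 CPM per kilobase in SM ewes against 12.8, 15.6 and 13.7 in STH ewes. These shares are descriptions and were not tested.

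**Figure D4:**
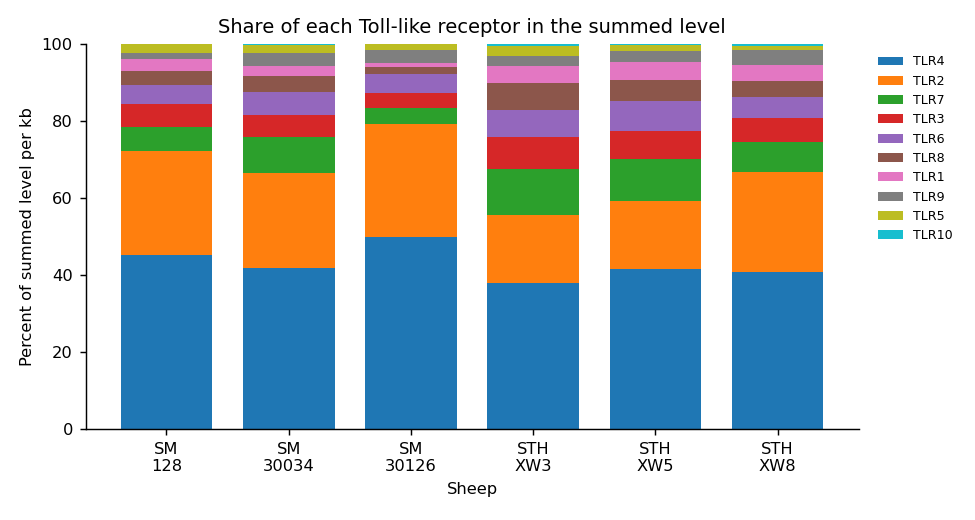
Stacked bars of the percent of the summed Toll-like receptor level (CPM per kilobase of exon) that each gene holds in each of the 6 ewes, stacked from the bottom in the order of mean level. TLR4 and TLR2 fill 55.5% (STH ewe XW3) to 79.1% (SM ewe 30126) of a bar.

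Among all tested genes, those whose centred log2 CPM over the 6 ewes were closest to TLR1 were CNTN4, KCNMB3 and LOC101116896, which the name table calls KLRK1, with root mean square differences of 0.13, 0.16 and 0.16. Each was lowest in SM ewe 30126 and highest in STH ewe XW5, for example LOC101116896 with 0.637 and 4.004 CPM. The receptor nearest to TLR1 was TLR8, with a difference of 0.38, and it ranked 264 of 15319 genes. The genes closest to TLR4 were DUSP22, THG1L and SSBP2, with differences of 0.04, 0.05 and 0.05, against a spread of TLR4 itself of 0.17. TLR2, the receptor nearest to TLR4, had a difference of 0.21 and ranked 2319.

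Genes that serve the receptors, genes induced by them or by interferon, and genes of other receptor families were described in 10 lists. Of the 122 genes of these lists, 112 were tested. With edgeR's quasi-likelihood test 0 of the 112 passed both thresholds, and at an unadjusted p under 0.05 there were 17 higher in SM and 11 higher in STH ewes, against 7.21% and 10.8% of all genes. Of the 17, 9 were interferon-induced genes, and the 6 lists from co-receptors to transcription factors held 5 higher in SM and 8 higher in STH ewes among 61 tested genes. DESeq2 and the likelihood ratio test each passed 8, all higher in SM ewes, against 1.02% and 0.868% of all genes passing in that direction and 1.87% and 1.43% in the other. Of these 8, 7 were interferon-induced genes and the other was PGLYRP2. No co-receptor, chaperone, adaptor, kinase, negative regulator or transcription factor of the lists passed with any of these 3 tests on all 6 ewes. Without SM ewe 128, 12 genes passed, 7 higher in SM and 5, TBK1, MAP3K7, TAB3, TANK and IL1A, higher in STH ewes, against 1.34% and 6.39% of all genes tested without that ewe.

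**Figure D5:**
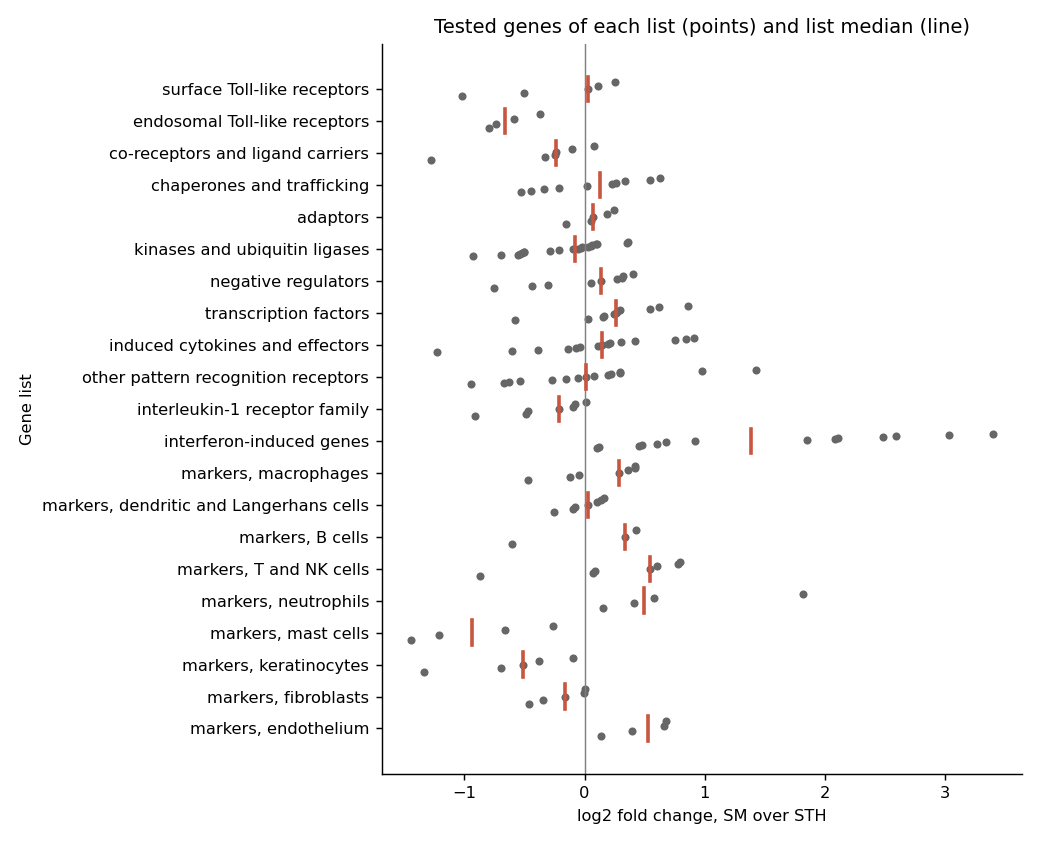
Log2 ratio, SM over STH, of every tested gene (grey points) in the receptor, pathway and cell marker lists, with the median of each list as a red line. The endosomal receptors lie to the left of 0, whereas the 14 interferon-induced genes lie to the right, with a median of 1.38.

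The co-receptors of the surface receptors were close in the breeds where they were well counted. CD14, which hands lipopolysaccharide to TLR4, had 14.5, 16.0 and 16.6 CPM in SM ewes against 14.6, 14.4 and 15.6 in STH ewes, with a log2 ratio of 0.08 (SE 0.15, adjusted p = 0.779, quasi-likelihood). LY96, the protein that binds lipopolysaccharide beside TLR4, had 7.40, 13.3 and 9.25 CPM in SM ewes against 13.9, 14.3 and 9.47 in STH ewes, with an adjusted p of 0.482. Per kilobase, CD14 at 13.7 and LY96 at 17.7 were both above TLR4. CD180, a surface relative of TLR4 known from B cells, was near the floor, with 0.331, 0.266 and 0.0255 CPM in SM ewes against 0.584, 0.521 and 0.397 in STH ewes. All its STH values exceeded all its SM values, as in 13.3% of all tested genes, and its adjusted p was 0.360 by quasi-likelihood. CD36 was not analysed here. HMGB1, a nuclear protein that can act as a ligand, was the most abundant of this list at 116 CPM per kilobase, with an adjusted p of 0.424. Of the 6 tested genes of the list, 5 had higher means in STH ewes, against 48.6% of all tested genes.

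Of the 10 chaperone and trafficking genes, 6 had higher means in SM and 4 in STH ewes, against 51.4% and 48.6% of all tested genes. HSP90B1, the endoplasmic reticulum chaperone that most of these receptors need, had 746, 776 and 632 CPM in SM ewes against 982, 1090.7 and 865 in STH ewes. All 3 STH values exceeded the 3 SM values, as in 13.3% of all tested genes. The log2 ratio was -0.45 (SE 0.16, unadjusted p = 0.021, adjusted p = 0.252, quasi-likelihood), and 10.8% of all tested genes had an unadjusted p under 0.05 in that direction. CNPY4, a regulator of receptor surface display, had the opposite order, with 52.9, 49.6 and 71.9 CPM in SM ewes against 43.3, 36.6 and 39.7 in STH ewes and a log2 ratio of 0.54 (SE 0.18, adjusted p = 0.247). SLC15A3, an endosomal peptide transporter, was also higher in all SM ewes, with a log2 ratio of 0.63 and an adjusted p of 0.254. All SM values lay above all STH values in 12.3% of all tested genes. For UNC93B1, which carries the endosomal receptors out of the endoplasmic reticulum, the groups overlapped, with means of 43.3 ± 6.98 CPM (SD, n = 3) for SM and of 36.2 ± 6.25 (SD, n = 3) for STH ewes and an adjusted p of 0.424.

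The 5 adaptors varied little. MYD88, used by most of the family, had means of 12.8 ± 1.49 CPM (SD, n = 3) for SM and of 12.4 ± 1.89 (SD, n = 3) for STH ewes, with a log2 ratio of 0.05 (SE 0.19, adjusted p = 0.878, quasi-likelihood). TICAM2, the bridging adaptor of TLR4, matched through LOC105601870 of the files, had 24.97 ± 0.615 (SD, n = 3) and 27.8 ± 1.011 (SD, n = 3), with all STH ewes above all SM ewes and a log2 ratio of -0.16 (adjusted p = 0.507). SARM1, an adaptor described as an inhibitor, had the opposite order, with a log2 ratio of 0.24 (adjusted p = 0.439). Among all tested genes, 13.3% had all STH above all SM ewes and 12.3% the opposite order. The log2 ratios of the 5 ran from -0.16 to 0.24.

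Of the 20 kinases and ubiquitin ligases, 13 had higher means in STH ewes, against 48.6% of all tested genes. In 6 of the 20 all 3 STH values exceeded the 3 SM values, against 13.3% of all tested genes. At an unadjusted p under 0.05 there were 5, all higher in STH ewes, namely TAB2, RIPK1, MAP3K7, TBK1 and MAPK8, against 10.8% of all genes in that direction. TBK1, the kinase that activates interferon regulatory factors after TLR3 and TLR4, had 27.6, 19.0 and 10.3 CPM in SM ewes against 28.7, 44.7 and 34.8 in STH ewes, with a log2 ratio of -0.93 (SE 0.33, adjusted p = 0.252, quasi-likelihood). MAP3K7, the kinase joined to TAB2 and TAB3, had 60.5, 38.9 and 30.1 CPM in SM ewes against 67.1, 77.2 and 65.3 in STH ewes, with a log2 ratio of -0.70 (SE 0.24, adjusted p = 0.250). As in TLR1, SM ewe 30126 was lowest and 128 was the SM ewe nearest to the STH ewes in both. TAB1 had the opposite sign, 0.35 (SE 0.18, adjusted p = 0.308), and its groups overlapped.

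Among the 9 tested negative regulators, SIGIRR, a decoy-like member of the same receptor superfamily, had means of 15.8 ± 2.48 CPM (SD, n = 3) for SM and of 11.95 ± 0.779 (SD, n = 3) for STH ewes, with a log2 ratio of 0.41 (SE 0.18, adjusted p = 0.276, quasi-likelihood). TANK, which binds TRAF proteins and TBK1, had 17.7 ± 6.39 (SD, n = 3) and 29.8 ± 5.13 (SD, n = 3), with a log2 ratio of -0.75 (SE 0.27, adjusted p = 0.252). Of the 11 transcription factors, 10 had higher means in SM ewes, against 51.4% of all tested genes. IRF7, the interferon regulatory factor that acts after TLR7 and TLR9 and is itself induced by interferon, had 2.94 to 4.34 CPM in SM ewes against 1.95 to 2.17 in STH ewes, without overlap. Its log2 ratio was 0.86 (SE 0.29, adjusted p = 0.247, quasi-likelihood), opposite in sign to that of TLR7 and TLR9. Like IRF7, 12.3% of all tested genes had all SM values above all STH values.

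Genes induced by the receptors showed no common direction, with higher SM means in 9 of 15 tested genes, against 51.4% of all tested genes. IL1A, a cytokine stored by keratinocytes, had 5.92, 3.85 and 1.73 CPM in SM ewes against 7.55, 9.64 and 9.63 in STH ewes, with a log2 ratio of -1.23 (SE 0.40, adjusted p = 0.247, quasi-likelihood). ICAM1, an adhesion molecule, had 24.2 ± 3.75 (SD, n = 3) and 18.0 ± 1.41 (SD, n = 3) CPM, with a log2 ratio of 0.42 (adjusted p = 0.262). The inflammatory cytokine TNF had means of 5.95 ± 2.68 CPM (SD, n = 3) for SM and of 5.54 ± 2.33 (SD, n = 3) for STH ewes, and IL6 had at most 28 counts in any ewe and was not tested. The 14 interferon-induced genes all had higher means in SM ewes, with a median log2 ratio of 1.38. In 8 of them all SM values lay above all STH values, against 12.3% of all tested genes. Some of these genes were picked by the study from these same libraries, so their direction is not independent evidence.

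Markers of the immune cells that carry these receptors were read beside them. The 7 macrophage markers found, of 8, summed to 136 to 198 CPM per kilobase in SM and 125 to 150 in STH ewes, ranges that overlap. The 7 dendritic and Langerhans cell markers summed to 6.06 to 13.1 in SM and 7.96 to 11.04 in STH ewes. The 4 mast cell markers summed to 2.00 to 3.797 and 3.39 to 6.99, lowest in SM ewe 30126 and highest in XW5, the ewes that were lowest and highest for TLR1, TLR3, TLR6 and TLR7. CPA3, a mast cell protease, had 2.71, 1.64 and 0.713 CPM in SM ewes against 4.54, 5.97 and 3.18 in STH ewes, with an adjusted p of 0.247 by quasi-likelihood. The 7 T and NK cell markers summed to 23.9 to 33.0 in SM and 17.2 to 24.6 in STH ewes, and the 5 neutrophil markers to 19.1 to 21.99 and 10.8 to 19.8. The neutrophil marker CSF3R had the opposite sign to CPA3, with a log2 ratio of 1.82 (SE 0.34, unadjusted p = 0.00051, adjusted p = 0.159, quasi-likelihood). The 5 keratinocyte markers summed to 3919 to 5086 in SM and 4985 to 7712 in STH ewes. The 5 fibroblast markers summed to 2780 to 3875 in SM and 3275 to 3962 in STH ewes. Their sum was also lowest in SM ewe 30126 and highest in XW5. The median log2 ratio was -0.16 for these 5 and 0.53 for the 4 endothelial markers. At an unadjusted quasi-likelihood p under 0.05, 3 keratinocyte, 1 mast cell and 1 fibroblast marker were higher in STH ewes, against 10.8% of all genes. Higher in SM ewes were 2 T and NK cell, 2 endothelial, 1 macrophage and 1 neutrophil marker, against 7.21%. DESeq2 and the likelihood ratio test each passed 1 neutrophil and 1 keratinocyte marker, against 2.89% and 2.3% of all genes. The part of these cell types in the receptor values was not tested.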

How the data were processed

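Polyadenylated RNA from skin gave 1 paired-end library for each ewe, and the breed came from the labels. The authors used CLC Genomics Workbench to align reads to Oar_v4.0, and they deposited the total count of each gene, not normalized, which all tests used. The study divides the mapped fragments of each ewe into exon, exon-exon, intron, intergenic and non-specific classes. Which of these classes entered the total counts is not stated. Intron fragments were fewest in SM ewe 30126, which also had the smallest share of reads outside the total counts. A link between these was not tested. The RPKM that the authors deposited gave exon lengths, since count over RPKM was a whole number of bases within 0.05 for all 17823 counted genes. The deposited TPM and a deposited score named CPM were not used.

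The 15320 genes reaching 10 counts in 3 or more ewes were scaled by TMM and fitted in edgeR 4.0.16 (R 4.3.3, quasi-likelihood, breed alone). A pass required more than 1.5-fold and a Benjamini-Hochberg adjusted p below 0.05. SE is the log2 ratio over the square root of F. Alternatives were DESeq2 1.42.0, the likelihood ratio test, RLE and upper quartile scaling, other filters, a loess length trend removed, other pseudocounts, RPKM for the order, and leaving out 1 ewe. A covariate, the share of reads outside the counts, was chosen after the data were seen. Simulated counts served to test the code.

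No label pairs ewes across breeds, and p values reflect the spread between these animals. The receptors and gene lists were chosen with earlier results of these data known. The rule for naming covers the 10 receptors, in each list the most abundant gene, the smallest p in each direction and any p under 0.05, and the 3 genes nearest in pattern to TLR1 and to TLR4. Not every gene it covers is given with values. LY96, UNC93B1, TAB3, TNF and IL6 fall outside it and were named after their values were seen. Of 183 listed symbols 178 were found, 5 through the name table. The summed level of the B cell markers is not reported here.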

Additional observations from a re-analysis of the deposited data

Results flagged for a closer look

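TOLLIP, an inhibitor of Toll-like receptor signalling, was matched through the name table to LOC106991827, which is listed at 0 counts in all 6 ewes although its deposited RPKM is above 0. The RPKM was 1.28, 1.36 and 1.69 in SM ewes against 1.08, 0.992 and 1.104 in STH ewes. It is 1 of 4291 genes with an RPKM but without a count, so that a signal lies in a column outside the tests. No Toll-like receptor is among them.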

How the results depend on the processing

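Toll-like receptors passing both thresholds remained at 0 under every alternative run, with adjusted p from 0.128 (TLR1 without SM ewe 128) to 0.988. TLR1, TLR2, TLR3, TLR6, TLR7, TLR8 and TLR9 kept their sign under all 14 alternatives. As 1 ewe was left out in turn, TLR1 ranged from -1.45 to -0.57, TLR3 from -0.80 to -0.29, TLR7 from -1.11 to -0.39 and TLR8 from -1.05 to -0.44, with the value nearest 0 without SM ewe 30126 in each. TLR4 ranged from -0.08 to 0.14, negative without SM ewe 128 (-0.075) or STH ewe XW3 (-0.07), and TLR5 from -0.16 to 0.43, negative without SM ewe 128 (-0.08), SM ewe 30034 (-0.02) or STH ewe XW8 (-0.16). Among all genes 443 passed with DESeq2, 352 with the likelihood ratio test, 8 with the length trend removed and 2 without a filter, against 0 in the main test, and 0 to 1175 as a ewe was left out, the most without SM ewe 128. Of the genes in the 10 lists that hold neither Toll-like receptors nor cell markers, 8 passed with DESeq2, 8 with the likelihood ratio test and 0 to 12 as a ewe was left out. The cause was not tested. The order of the 10 receptor levels was the same under all 9 alternatives, and 4 to 5 neighbour pairs held in every remaining ewe as a ewe was left out. Of these alternatives, the other pseudocounts could not change any order. The deposited RPKM, from which the exon lengths came, could not change the order within a ewe. Of 294 alternative list medians, 16 moved by more than the spread between ewes. TLR10 was below the minimum count. No paired analysis was possible because the ewes of the breeds are different animals, their numbers were given in the order of the records, and no label ties an SM to an STH ewe.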

Other observations

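Receptors of other pattern recognition families did not share 1 direction. Of 15 tested genes 8 had higher means in SM and 7 in STH ewes, against 51.4% and 48.6% of all tested genes. Their median log2 ratio was 0.01. DDX58, a cytosolic sensor of viral RNA that is itself induced by interferon, had 39.4, 63.1 and 23.5 CPM in SM ewes against 22.7, 13.6 and 27.6 in STH ewes, with a log2 ratio of 0.98 (SE 0.37, adjusted p = 0.256, quasi-likelihood). Its sign was opposite to that of TLR3, TLR7 and TLR8, the endosomal sensors of RNA. CLEC7A, the receptor for fungal glucans, had 3.67, 5.67 and 1.89 CPM in SM ewes against 5.32, 7.37 and 9.00 in STH ewes, with a log2 ratio of -0.95 (SE 0.40, adjusted p = 0.270).

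The interleukin-1 receptor family shares the TIR domain with the Toll-like receptors. In it 6 of 7 genes had higher means in STH ewes, against 48.6% of all tested genes. IL1RL1, the receptor for the alarmin IL33, had 2.58, 1.73 and 1.17 CPM in SM ewes against 3.02, 4.38 and 2.85 in STH ewes, without overlap, and a log2 ratio of -0.91 (SE 0.38, adjusted p = 0.267, quasi-likelihood). Like IL1RL1, 13.3% of all tested genes had all STH values above all SM values. IL1R1, the most abundant of the family, had a log2 ratio of 0.01 (adjusted p = 0.968).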
